A study of Triticum aestivum with 6 samples.

Results

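In the leaves of bread wheat (Triticum aestivum), 117 abundant genes had nearly the same transcript level at 4 °C and at 23 °C in the authors' deposited values. They are 117 of 99386 genes in all, and of 995 genes whose mean level was 100 to under 1000 FPKM. FPKM corrects the number of sequenced fragments for transcript length and for sequencing yield. A gene's level was the sum over its transcripts, and a gene was counted as steady where its level at 4 °C divided by that at 23 °C was 0.9 to 1.1. The genes were thus chosen by the deposited values at both temperatures, so their ratios describe the choice and are no finding.

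RNA from leaves was sequenced in 3 libraries of plants grown at 4 °C, labelled 4 weeks, and in 3 libraries of plants grown at 23 °C, labelled 2 weeks. All 6 libraries carry the label 18:3 lipid phenotype, and their treatment label reads 2 weeks of cold, also for the 23 °C libraries. The temperatures were held in separate chambers, both with a 16-hour photoperiod and light of 120 μmol per m2 per s. Temperature, chamber and labelled weeks changed together and cannot be told apart. The table gives 1 value per transcript and condition, so the spread between libraries and the depth are unknown, and whether any ratio near 1 lies within replicate error was not tested.

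As background, bread wheat is a hexaploid whose A, B and D subgenomes each bring a copy of most genes, called homoeologues, and the chromosomes are sorted into homoeologous groups across the subgenomes. Cold-grown wheat acclimates, and its leaves change the levels of many transcripts while they keep up photosynthesis, translation and other basic work. Transcripts with a stable level across growth conditions are used as internal standards when other transcripts are measured. FPKM is relative to what was sequenced, so a stable FPKM does not show a stable amount per cell. In whole leaves, fewer cells of a type and less RNA per cell also cannot be told apart. The table gives gene IDs that carry the chromosome arm and no gene name, and 0 of the 99386 IDs matched a RefSeq gene table of the wheat assembly IWGSC CS RefSeq v2.1, so the functions of the 117 genes and their sequences are not given here, and leaf markers could not be checked.

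The steady genes made up 11.8% of their abundance range, a share that depends on the width of the window. It was 24.3% with a wide window (0.8 to its inverse) and 6.53% with a narrow one (within 5% of 1). Among the plotted ratio bins of equal width on the log scale, described below, the window from 0.9 to 1.1 held the most genes. Whether steady genes were rare or common is therefore not read from this share. The other 878 genes of the range were split into 318 below 0.9 and 560 above 1.1. The window from 0.9 to 1.1 held 14.2% of the 22110 genes averaging 1 to under 5 FPKM. It held 15.6% of the 14635 genes from 5 to under 20 FPKM and 12.6% of the 5144 genes from 20 to under 100 FPKM. It held 21.6% of the 88 genes with at least 1000 FPKM, or 19 genes. Over all 42972 genes that averaged 1 FPKM or more, 14.4% had a ratio in the window. Of 169 transcripts with no gene ID and 100 to under 1000 FPKM, which lay outside the rule, 7.69% had one. These are single transcripts and not sums per gene, so their share is not like for like with those of genes. The share of genes in the window was 12.6% or lower between 20 and 1000 FPKM, where the median ratio of all genes was highest, at 1.28 from 20 to under 100 FPKM and 1.22 from 100 to under 1000 FPKM.

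**Figure D1:**
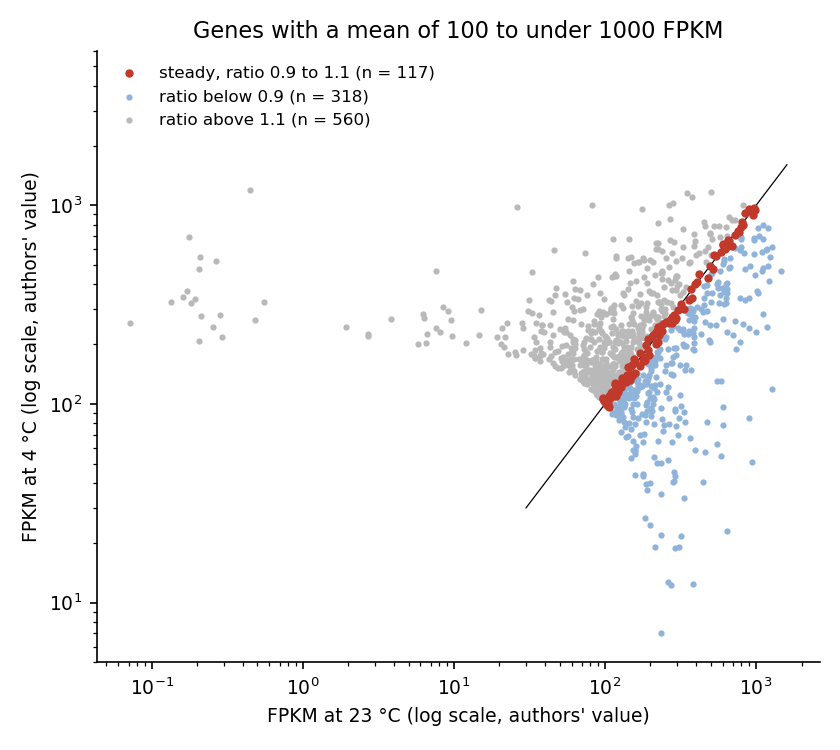
Each point is 1 of the 995 genes that averaged 100 to under 1000 FPKM, with FPKM at 23 °C on the x axis and at 4 °C on the y axis, both on log scales; the line marks equal values. The 117 steady genes lie along the line, with 560 genes above the window and 318 below it, and the genes farthest from the line are higher at 4 °C.

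The genes of the range formed 1 broad distribution of ratios, and the steady genes did not stand apart in it. In bins of equal width on the log scale, the window from 0.9 to 1.1 held 117 genes, the next bin above it, up to a ratio of 1.34, held 114, and the one after, up to 1.64, held 102. The next bin below, from 0.74 to 0.9, held 86 genes, and the one from 0.60 to 0.74 held 69. The values just inside and outside the window were close together. The lowest ratio of a steady gene was 0.9001 and the highest ratio under the window 0.8997. The highest ratio of a steady gene was 1.0998 and the lowest above the window 1.101. By mean level the steady genes ran from 100.7 to 966.0 FPKM. Among genes with a ratio in the window, the nearest outside this range had means of 99.7 FPKM below it and 1013 FPKM above it.

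**Figure D2:**
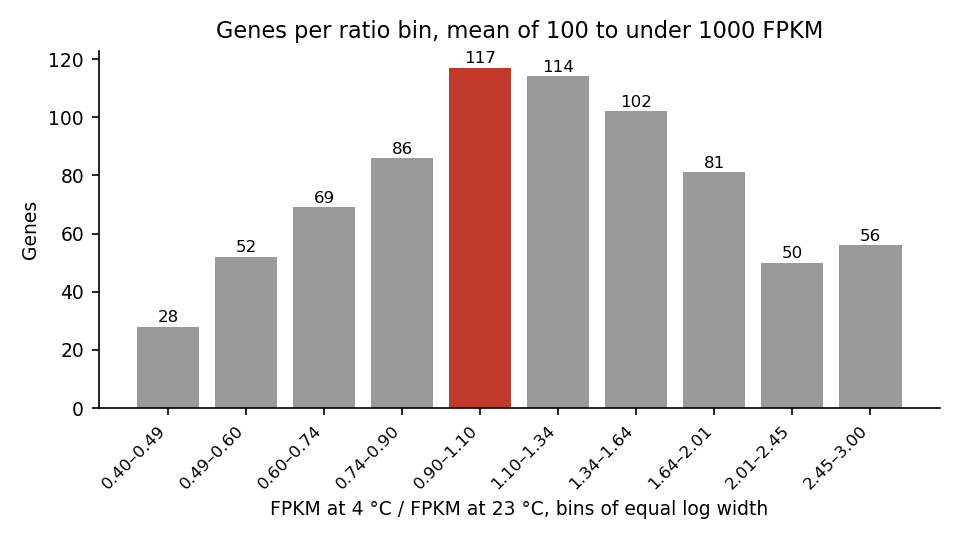
Bars give the number of genes in bins of equal log width of the ratio of FPKM at 4 °C to FPKM at 23 °C, for the 995 genes of the abundance range; the steady window is in red, and 83 genes below and 157 above the plotted bins are not drawn. The steady window holds 117 genes and the bin above it 114, with no gap between them.

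In the deposited values, the steady genes spread over the whole abundance range, with a larger share among its most abundant genes. Their levels at 4 °C ran from 97.0 to 965 FPKM, with a median of 213, and those at 23 °C from 97.0 to 982 FPKM, with a median of 207. The median of the mean level was 212 FPKM in steady genes and 163 FPKM in the other genes of the range. Of the 103 genes averaging 500 to under 1000 FPKM, 22 were steady, or 21.4%. The share was 13.2% of 189 genes from 250 to under 500 FPKM, 9.93% of 282 genes from 150 to under 250 FPKM and 9.98% of 421 genes from 100 to under 150 FPKM. The median ratio of all genes in these bins was 0.95 in the highest bin, 0.995 from 250 to under 500 FPKM, 1.27 from 150 to under 250 FPKM and 1.39 in the lowest. On chromosomes of group 2 the share was largest from 150 to under 250 FPKM, at 30.8%, against 17.4% in the highest bin. The shares by abundance were not taken after the other scalings.

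Within the window, a level lower at 4 °C was listed for 66 of the 117 genes and a higher one for 51, and the median ratio was 0.99, with quartiles of 0.95 and 1.04. The window and the scaling set this split, so no direction is read from it. Within 5% of a ratio of 1 were 65 genes, and within 1% were 13. Together the 117 genes summed to 34638 FPKM at 4 °C, against 34947 FPKM at 23 °C, or 3.29% of the 4 °C column and 3.47% of the 23 °C column.

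When all genes were put in order of level, 94 of the 117 were at a lower place at 4 °C than at 23 °C and 23 at a higher one. The median place was 540 at 4 °C and 434 at 23 °C. The gene at place 500 had 227 FPKM at 4 °C, against 180 at 23 °C, and the gene at place 1000 had 120.2 FPKM at 4 °C, against 92.0 at 23 °C. At place 100 the order was the other way, with 801 FPKM at 4 °C, against 994 at 23 °C. A gene chosen for a ratio near 1 has to lose places where the level at a place is higher at 4 °C, so these ranks follow from the choice and from the 2 distributions and are no finding.

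Which genes count as steady depended on how the columns were scaled. The summed FPKM of all transcripts was 1052450 at 4 °C and 1006040 at 23 °C, and the authors' values were used as deposited. Median-of-ratios scaling, which sets the typical gene above 0 in both columns to a ratio of 1, lowered all ratios by a factor of 1.07. The 117 genes then had ratios of 0.84 to 1.03, with a median of 0.93. Of these genes, 82 kept a ratio in the window and 35 fell below 0.9. The window then held 127 genes, 82 of them among the 117. Quantile normalization, which gives both columns the same distribution, moved the genes further. The ratios of the 117 were then 0.70 to 1.30 with a median of 0.82. Among them, 88 lay below the window, 15 above it and 14 in it. The window then held 112 genes, whose median ratio in the deposited values was 1.249. The number of steady genes was therefore similar under the 3 scalings, at 117, 127 and 112, while the genes themselves were mostly others under quantile normalization. Bins of equal log width beside the window held 86 and 114 genes, so a like number after a shift of the window lends no weight to the 117.

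The D subgenome held the most steady genes, in nearly the proportion that it held other genes of the range. Of the 117, 33 lay on A chromosomes, 34 on B and 50 on D, or 28.2%, 29.1% and 42.7% of them. Of the 878 other genes, 27.2% were A, 30.5% B and 42.3% D genes. The share of a subgenome's genes of the range that were steady was 12.1% in A, 11.3% in B and 11.9% in D. The differences between steady and other genes were 0.98, -1.46 and 0.48 percentage points, and each changed sign under at least 1 other setting, so no direction is given for a subgenome. The steady genes of A, B and D held 10510, 8661 and 15467 FPKM at 4 °C, against 10678, 8677 and 15593 FPKM at 23 °C.

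Chromosomes of homoeologous group 2 held the most steady genes in the deposited values. Of the 117 genes, 38 lay on group 2 chromosomes, or 32.5%, against 138 of the 878 other genes, or 15.7%. Of the 176 genes of the range on group 2, 21.6% were steady. Of the 819 on the other groups, 79 were steady, or 9.65%. All subgenomes shared in this, with 14 of 55 genes on 2A, 8 of 45 on 2B and 16 of 76 on 2D. By arm, 2DL held the most steady genes by count, 11 of its 50 genes of the range. The counts were 8 of 25 on 2AL, 6 of 30 on 2AS and 5 of 22 on 2BL. On 2DS 5 of 26 were steady, and on 2BS 3 of 23, or 13.0%, against 11.8% of the whole range. By share, 2DL stood at 22.0%, below other arms such as 2AL, at 32.0%, and 7BS, at 33.3% of 12 genes. Genes of an arm and copies on homoeologous arms are not independent, and reads can be assigned to the wrong copy, so these shares are descriptions with no test.

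The median ratio of all genes of the range was 1.03 on group 2 and 1.27 on the other groups. By chromosome, a median under 1.1 was found on 2A, 2B, 2D, 3B and 5A. The steady shares there were 25.5%, 17.8%, 21.1%, 14.9% and 10.6%, in this order. The part of the median ratio in the steady share was not tested. On group 2, 36.4% of the genes of the range were below the window and 42.0% above it. On the other groups 31.0% were below and 59.3% above. The larger steady share on group 2 held in 3 of 4 abundance bins. It was 14.5% on group 2 and 8.99% elsewhere from 100 to under 150 FPKM, 30.8% and 6.58% from 150 to under 250 FPKM, and 28.9% and 9.27% from 250 to under 500 FPKM. From 500 to under 1000 FPKM it was 17.4% on group 2, or 4 of 23 genes, and 22.5% elsewhere.

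The group 2 share followed the scaling. After median-of-ratios scaling 24.4% of steady genes and 16.8% of other genes lay on group 2. After quantile normalization the order turned round, with 13.4% of steady and 18.9% of other genes on group 2, and group 5 then held the most steady genes, with 24.1% of them against 14.5% of other genes. In the deposited values group 5 held 12.0% of steady and 16.1% of other genes.

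**Figure D3:**
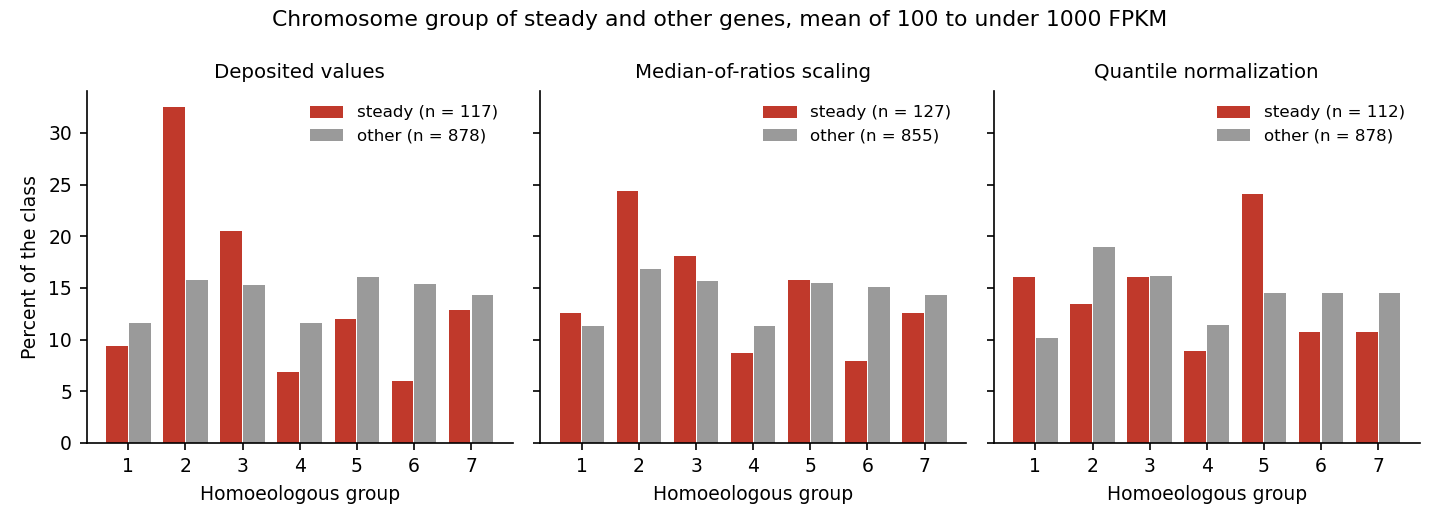
Bars give the percentage of steady genes (red) and of other genes of the same abundance range (grey) on each homoeologous chromosome group, for the deposited values and after each scaling. Group 2 stands at 32.5% of steady and 15.7% of other genes in the deposited values, and at 13.4% of steady and 18.9% of other genes after quantile normalization.

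Group 6 held few steady genes in the deposited values. Only 7 of its 142 genes of the range were steady, or 4.93%, with 0 of 10 genes on 6A, 1 of 32 on 6B and 6 of 100 on 6D. Its chromosomes were uneven in the table. A mean of at least 1 FPKM was reached by 505 of 4038 gene IDs on 6A, 1592 of 3746 on 6B and 1936 of 3869 on 6D. The steady share of group 6 was 7.19% once median-of-ratios scaling was applied, and 8.63% with quantile-normalized values. After quantile normalization group 6 was no longer the lowest, with group 2 at 8.29% and group 7 also at 8.63%. In the deposited values the other groups lay between groups 6 and 2. Of the genes of the range, 15.2% were steady on group 3, 10.6% on group 7, 9.73% on group 1, 9.03% on group 5 and 7.27% on group 4. Among all genes that averaged 1 FPKM or more, the steady share differed less between groups, from 14.0% on group 2 to 15.2% on group 5, so the order of the groups among abundant genes was not that of all expressed genes.

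Steady genes were found on 35 of the 41 arms in the table, where chromosome 3B is not split. The arms 1AS, 4BS, 6AL, 6AS, 6BL and 7AL held none, with 73 genes of the range among them. Arms were also joined into 13 sets of homoeologous arms, with group 3 as 1 set and with 4AS placed beside 4BL and 4DL and 4AL beside 4BS and 4DS, since a known inversion swapped the arms of 4A. In 8 of the 13 sets, A, B and D each held at least 1 steady gene. The long arms of group 2 had 24 steady genes of 97, or 24.7%, and the short arms of group 5 had 7 of 36, or 19.4%. The long arms of group 6 had 3 of 94, or 3.19%, the long arms of group 7 had 3 of 69, or 4.35%, and the long arms of group 5 had 7 of 119, or 5.88%. Copies of each other cannot be told from the IDs, so whether homoeologues were steady together was not tested.

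By share, more steady genes than other genes of the range had at least 10 assembled transcripts, in the main setting, the only one tried. The highest number was 19 in steady genes and 33 in the others. The median was 4 transcripts in steady genes and 3 in other genes, and the share with several transcripts was 75.2% and 73.5%. At least 10 transcripts were listed for 13 of 117 steady genes, or 11.1%, and for 52 of 878 other genes, or 5.92%. In terms of the range, 13 of the 65 genes with at least 10 transcripts were steady, against 14.2% of the 219 genes with 5 to 9, 11.3% of the 275 genes with 3 or 4, 7.47% of the 174 genes with 2 and 11.1% of the 262 genes with 1. The genes with at least 10 transcripts had a median ratio of 1.08, against 1.17 to 1.30 in the classes with fewer, and 24.6% of them lay on group 2, against 15.1% to 19.1% in the other classes; the part of these in the larger steady share was not tested.

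Many of the listed transcripts had low values. In the 88 steady genes with several transcripts, 514 transcripts were listed, of which 47.1% had a mean under 1 FPKM and 21.4% were listed at 0 in both conditions. In the 645 other genes with several transcripts these shares were 40.7% and 18.6% of 3107 transcripts. The median gene had 3 transcripts with at least 1% of its FPKM among steady genes and 2 among other genes. The effective number of transcripts, which counts each by its share of the gene's FPKM, had a median of 1.60 in steady genes and 1.62 in other genes. Transcripts with 1 gene ID did not stand together in the table for 3 of the 117 steady genes and 20 of the 878 other genes, so such an ID may join separate assembled loci.

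Steady genes and other genes had nearly the same median shift of FPKM among their transcripts. The redistribution of a gene was taken as the percentage of its FPKM that would have to move between transcripts to turn the 23 °C shares into the 4 °C shares, a measure that the choice of genes did not use directly. Its median was 3.62% in the 88 steady genes and 3.74% in the 645 other genes, with upper quartiles of 8.26% and 8.25%. It was at least 10% in 17 of 88 steady genes, or 19.3%, and in 18.4% of all 733 genes of the range with several transcripts. It was at least 20% in 3 steady genes, or 3.41%, and in 39 other genes, or 6.05%. The highest value was 33.7% among steady genes and 98.0% among the others.

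**Figure D4:**
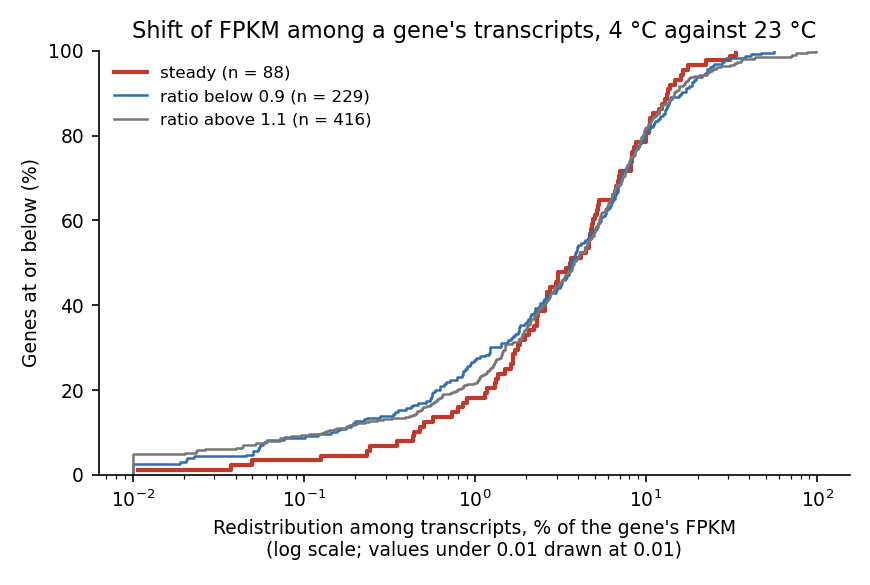
Lines give the cumulative percentage of genes against redistribution among transcripts, as a percentage of the gene's FPKM on a log scale, for 88 steady genes and for 229 genes below and 416 above the window, all with several transcripts. The lines lie close together above 2%, with medians of 3.62% for steady genes, 3.65% for genes below and 3.79% for genes above the window.

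The leading transcript, the one with the highest FPKM of the gene, took a median of 78.4% of the gene's FPKM at 4 °C and 75.01% at 23 °C in steady genes with several transcripts. In the other genes the medians were 76.7% at 4 °C and 74.8% at 23 °C. The leading transcript was another one at 4 °C in 4 of the 88 steady genes, or 4.55%, against 6.55% of all 733 genes. In 3 of these 4 the leading pair held like shares. In the gene on 6DL, the transcript leading at 4 °C held 52.8% of the FPKM at 4 °C and 44.7% at 23 °C, and its rival 47.2% at 4 °C and 55.3% at 23 °C. In that on 4DS, these shares were 50.8% and 44.7% for the one, and 46.0% at 4 °C and 46.3% at 23 °C for the rival. In that on 6DS they were 47.7% and 46.4%, and 46.9% and 48.6%. The last one, on 2AS, is described below. Among the 59 steady genes whose leading transcript took at least 60% in both conditions, 0 changed it, against 4 of 432 other genes. Such changes were rare in both classes, so no difference is read from these counts.

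Single transcripts of steady genes could move while the sum stayed. Of 187 transcripts with a mean of at least 10 FPKM in these 88 genes, 97 had a ratio of 0.9 to 1.1 themselves, or 51.9%, against 10.8% of all 1521 such transcripts of the range. On the log2(FPKM + 1) scale, 3 were at least 2-fold higher at 4 °C, or 1.60%, and 10 at least 2-fold lower, or 5.35%. Over the whole range the 2-fold shares were 25.8% and 14.4%, but a steady sum limits how far its transcripts can move, so these counts follow in part from the choice of genes. In 6 of the 65 steady genes with 2 or more such transcripts, 1 transcript was at least 1.5-fold higher at 4 °C and another at least 1.5-fold lower, or 9.23%, against 4.42% of the 520 such genes of the range. Within a steady sum a large move of 1 transcript has to be offset by others, so this share too is set in part by the choice. The 6 genes lay on 1BL, 1DS, 2AL, 2AS and, for 2 of them, 7DS.

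The most abundant steady gene, and the most abundant of those lower at 4 °C, was Traes_5DS_E8892706A on the short arm of 5D. It had 949.9 FPKM at 4 °C, against 982 at 23 °C, a ratio of 0.97. Beneath this sum, its leading transcript had 527 FPKM at 4 °C, against 441 at 23 °C, and the next had 257 FPKM at 4 °C, against 361 at 23 °C. One more transcript had 166 FPKM at 4 °C, against 180 at 23 °C. The leading transcript was thus higher and the other two lower at 4 °C, with a redistribution of 10.6% of the gene's FPKM.

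The most abundant steady gene with a higher level at 4 °C was Traes_3B_71DAC7F5D on chromosome 3B. It had 955 FPKM at 4 °C, against 899.8 at 23 °C, a ratio of 1.06. Its leading transcript had 689.6 FPKM at 4 °C, against 638 at 23 °C, and the next had 251 FPKM at 4 °C, against 244 at 23 °C. Both kept nearly the same share of the gene, and the redistribution was 1.32%.

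The largest redistribution of all steady genes was that of Traes_2AS_57C9CAC3C on the short arm of 2A. Its sum over 13 transcripts was 200.1 FPKM at 4 °C, against 218 at 23 °C, a ratio of 0.92. The transcript that led at 23 °C had 52.1 FPKM at 4 °C, against 124 at 23 °C. The one that led at 4 °C had 92.9 FPKM at 4 °C, against 50.2 at 23 °C, and another had 51.2 FPKM at 4 °C, against 33.9 at 23 °C. The transcript with the most FPKM at 23 °C thus gave way to others of the same gene ID, with 33.7% of the gene's FPKM on different transcripts.

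Among steady genes with a higher level at 4 °C, the redistribution was largest in Traes_2DS_9D4521586 on the short arm of 2D, at 22.3%. Its sum over 18 transcripts was 231 FPKM at 4 °C, against 218 at 23 °C. The leading transcript had 196 FPKM at 4 °C, against 140.5 at 23 °C, and the next had 26.0 FPKM at 4 °C, against 60.2 at 23 °C. The leading transcript remained the same and held 84.8% of the gene at 4 °C and 64.3% at 23 °C. Values of single transcripts are estimates that divide shared reads among overlapping models, and the table holds no error for them.

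**Figure D5:**
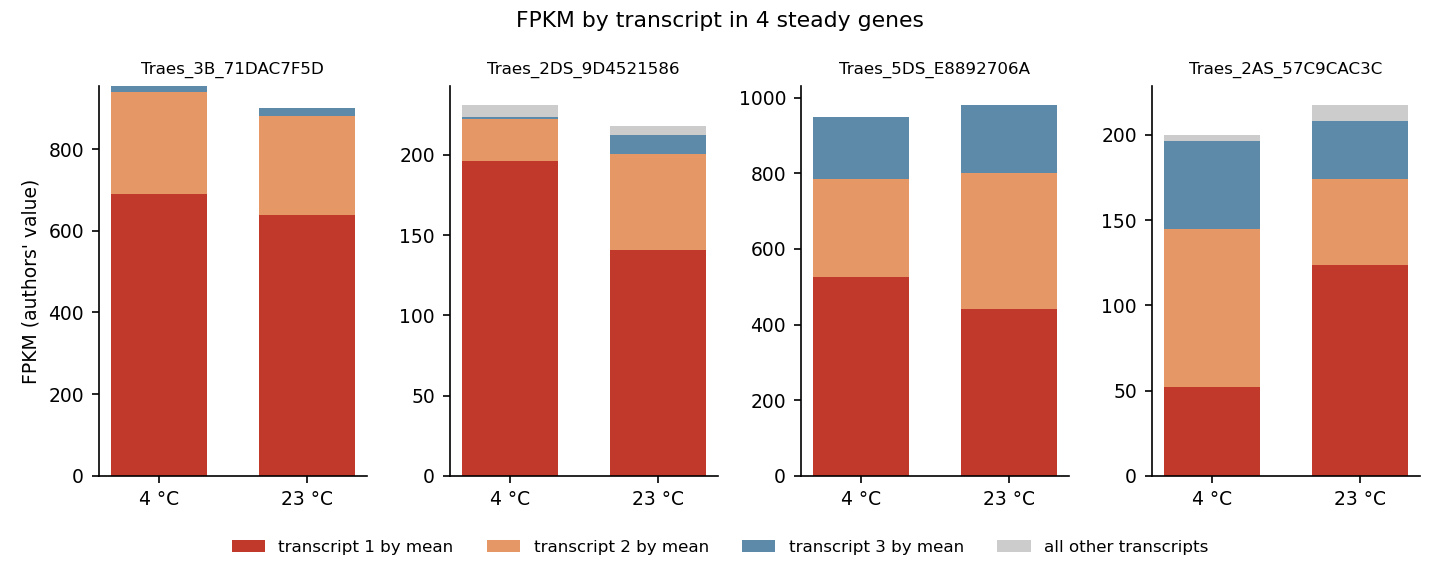
Stacked bars give FPKM at 4 °C and at 23 °C in 4 steady genes, split into the transcripts with the highest mean and all others; the y axes start at 0 and differ between panels. The bars of a gene are nearly equal in height, while in Traes_2AS_57C9CAC3C the transcript with the highest mean had 52.1 FPKM at 4 °C, against 124 at 23 °C.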

How the data were processed

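Leaf RNA of wheat plants at 4 °C and at 23 °C was sequenced in 3 libraries per condition. The authors deposited FPKM values, 1 per transcript and condition, for 442311 transcripts, of which 384429 carry a gene ID. The column named cold was taken as 4 °C and the one named control as 23 °C, per the file headers and the labelled temperatures. The submitters' processing notes name Cuffdiff 2.1.1, Cufflinks 2.1.1, STAR 2.3.0e, Trimmomatic 0.30 and CASAVA 1.8.2. What each did, the genome build, the annotation and how libraries were combined are not stated in the sources used here. Depth is unknown.

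FPKM was summed per gene ID with pandas 2.3.3, and ratios were taken with no pseudocount except where stated. Steady genes were compared with the other genes of a mean of 100 to under 1000 FPKM by counts, shares and medians. No test was made, since the table has no value per library and genes are not replicates. The genes, the comparisons and the rule for named genes were chosen with earlier results of these data known. That rule takes, among steady genes higher and among those lower at 4 °C, the one with the highest mean and the one with the largest redistribution. The counting steps were tested on simulated data. Other windows, ranges, scalings, filters and a pseudocount were tried.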

Additional observations from a re-analysis of the deposited data

How the results depend on the processing

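No paired analysis was possible because single libraries have no values in the table, and no library could be left out either. The count of 117 steady genes stayed within 1.5 times (95 to 127) under both scalings, a pseudocount of 1, without transcripts under 1 FPKM, with the leading transcript alone and without group 6; under quantile normalization only 14 of the 117 were among its 112. It was 242 with a wide window (0.8 to its inverse), 65 with a narrow one (within 5% of 1) and 236 at 50 to under 500 FPKM, settings that by construction hold more or fewer genes. The pseudocount and the omission of group 6, which held 7 steady genes, could move the count only little, so they do not test it. A scaling shifts the window along a broad distribution, in which the bins of equal log width beside it held 86 and 114 genes. The count could thus hardly leave that range under the scalings, so they do not test it either. The differences below are steady minus other genes, in percentage points, and where they moved the cause was not tested. The A share (0.98) was -0.67 at 50 to under 500 FPKM and -0.82 without group 6. The B share (-1.46) was 1.39 with the wide window. The D share (0.48) was -6.22 with the wide window, -2.65 after median-of-ratios scaling and -1.45 with the leading transcript. The share with several transcripts (1.75) was -1.62 at 50 to under 500 FPKM. The share with another leading transcript (-2.28), which rests on 4 of 88 steady genes, was from -4.40 to -0.32 in the settings tried. Of these differences, only the group 2 share was also taken after quantile normalization. Median redistribution (-0.12) was -0.33 with the wide window, -0.73 at 50 to under 500 FPKM, -0.62 after median-of-ratios scaling, -0.0986 without transcripts under 1 FPKM and 0.11 without group 6. The group 2 share (16.8), with alternatives chosen after it was seen, was 8.30 with the wide and 7.41 with the narrow window, -5.51 after quantile normalization and 7.57 after median-of-ratios scaling; at 50 to under 500 FPKM, without group 6 and with the leading transcript it was 8.83, 16.0 and 15.7.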

Other observations

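Pooled over the chromosomes that are split, short arms held a larger share of steady genes than long arms in the abundance range, but not on group 2. Of 330 genes on short arms, 49 were steady, or 14.8%, and of 598 genes on long arms, 58 were steady, or 9.70%; chromosome 3B, which is not split, held the other 10 steady genes. On group 2, which held the most steady genes, 14 of 79 genes on short arms were steady, or 17.7%, and 24 of 97 on long arms, or 24.7%. The split was chosen after the arm counts were seen, was counted in the deposited values only and was not tested.

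Transcripts with no gene ID lay outside the rule. In the same abundance range, 13 of 169 such transcripts had a ratio of 0.9 to 1.1, while 71 were below the window and 85 above it.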
